A study of Mus musculus with 21 samples.

Results

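The regions described here are stretches of chromatin that opened in endothelial progenitors when Sox7 was induced and that already had an accessibility peak in uninduced cardiac progenitors. They were chosen from ATAC-seq peak lists, in which a peak marks chromatin cut often by a transposase. Peaks of all 8 ATAC lists were merged where they overlapped by 1 bp, which gave 51264 regions. A region was kept if it had a peak in both induced EPC lists, in neither uninduced EPC list, and in at least 1 uninduced CPC list. This left 744 regions, 1.45% of all, here called CPC-open gained regions. They were 23.7% of the 3139 regions gained in EPC, and the gain itself was called at 6.12% of all regions. The remaining 2395 gained regions, which had no peak in uninduced CPC, are called other gained regions. Presence in the EPC and uninduced CPC lists chose the regions, so presence and scores there are given as a description. The induced CPC lists and the ChIP lists played no part in the choice.

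Every library came from day 4 embryoid bodies of the mouse line A2lox-Sox7-Myc, embryonic stem cells of E14Tg2a origin in which doxycycline switches on a Myc-tagged Sox7. Induced and uninduced cells alike carry this transgene, and the labels name no limit of it to a cell type. Induced EPC (2 libraries) and induced CPC (2 libraries) came from cultures given doxycycline at 1 µg/ml on day 3, for 24 h, while uninduced EPC and uninduced CPC (2 libraries each) had none. EPC are PDGFRα−FLK1+ cells and CPC are PDGFRα+FLK1+ cells, which the series' design text calls endothelial and cardiac progenitors. Anti-Myc ChIP-seq was done on unsorted embryoid bodies with the same induction (4 induced and 4 uninduced libraries), with 1 uninduced input library. RNA-seq of 4 further samples (12 h of doxycycline in the induced ones) was not analysed here. Because unsorted bodies hold many cell types, a ChIP peak is not tied to EPC or CPC.

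Sox7 belongs to the SOXF group of transcription factors, with Sox17 and Sox18, which act in vessel and endoderm formation and bind DNA through an HMG box. FLK1, encoded by Kdr, is the main VEGF receptor of endothelium, and PDGFRα marks mesoderm that gives rise to heart and smooth muscle. Cells that carry both receptors can still give rise to several cardiovascular lineages. Promoters are often open in many cell types, whereas distal enhancers open in a lineage-dependent way.

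The lists held 28915 and 30732 peaks in induced EPC and 27934 and 23694 in uninduced EPC. There were 29291 and 27979 peaks in induced CPC and 27540 and 23068 in uninduced CPC. Induced ChIP lists held 1061 to 2807 peaks and uninduced lists 772 to 1059. The depth behind the lists is unknown, so a peak can be missing through lower depth or through a closed site. In sorted bulk cells, fewer cells with an open site and a less open site in each cell cannot be told apart. Uninduced ChIP lists 2 and 4 had 75.8% of their peak starts in common (share of the shorter list), where the next pair of lists had 1.04%, and they were counted as 1 library. As a check of the sort labels, Kdr had peaks at 5 and 4 regions in induced EPC, 3 and 4 in uninduced EPC, 2 and 4 in induced CPC, and 2 and 3 in uninduced CPC. Pdgfra had peaks at 2 and 2, 3 and 1, 3 and 3, and 3 and 2 regions in the same order, so these lists did not separate the labelled populations at the sorting genes. Over 161 regions of endothelial genes, 71 to 98 had a peak in the EPC libraries and 49 to 77 in the CPC libraries. Over 125 regions of cardiac genes, 50 to 63 had a peak in the EPC libraries and 60 to 74 in the CPC libraries.

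A few promoters that lay wholly inside CPC-open gained regions are shown first, because these regions held a start site more often than the other gained regions did. The 250 bases before the start site are from RefSeq (GRCm38.p6), 5′ to 3′ on the gene's strand, with AACAAT or its reverse complement ATTGTT, a core word of sequences that SOX proteins bind, in capitals. Frmd4a (chr2:4400726-4400975, plus strand), which encodes a FERM-domain scaffold of cell polarity, and Tfpi (chr2:84474175-84474424, minus strand), which encodes tissue factor pathway inhibitor, an anticoagulant made by endothelium, had the highest induced EPC score ranks among promoters so placed. Lamb1 (chr12:31265043-31265292, plus strand), a laminin chain of basement membrane, and Cnn1 (chr9:22099003-22099252, plus strand), the smooth muscle protein calponin, were on the gene lists. These 4 were chosen after their values were seen.
Frmd4a: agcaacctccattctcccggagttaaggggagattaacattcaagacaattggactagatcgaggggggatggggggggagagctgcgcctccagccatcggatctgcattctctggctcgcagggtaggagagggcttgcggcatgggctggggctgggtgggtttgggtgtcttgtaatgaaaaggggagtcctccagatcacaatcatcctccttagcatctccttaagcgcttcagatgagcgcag
Tfpi: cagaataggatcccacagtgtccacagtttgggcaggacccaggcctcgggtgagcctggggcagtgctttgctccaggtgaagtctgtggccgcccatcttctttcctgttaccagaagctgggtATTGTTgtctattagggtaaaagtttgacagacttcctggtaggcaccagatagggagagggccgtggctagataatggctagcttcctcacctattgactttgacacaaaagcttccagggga
Lamb1: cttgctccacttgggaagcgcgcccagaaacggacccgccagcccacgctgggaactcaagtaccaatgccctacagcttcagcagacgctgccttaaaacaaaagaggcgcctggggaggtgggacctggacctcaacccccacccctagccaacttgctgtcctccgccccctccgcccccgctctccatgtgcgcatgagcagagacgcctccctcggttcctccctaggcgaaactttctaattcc
Cnn1: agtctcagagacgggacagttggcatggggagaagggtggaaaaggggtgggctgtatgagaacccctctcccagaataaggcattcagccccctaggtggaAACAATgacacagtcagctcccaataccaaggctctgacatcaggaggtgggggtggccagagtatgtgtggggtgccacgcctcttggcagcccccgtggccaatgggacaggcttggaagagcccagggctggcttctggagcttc

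Frmd4a's promoter region had scores of 220.9 and 307.2 in induced EPC, 129.9 and 90.0 in induced CPC, and 80.9 and 53.6 in uninduced CPC. Tfpi's had 158.6 and 195.5 in induced EPC, 290.9 and 223.7 in induced CPC, and 205.6 and 108.6 in uninduced CPC. Both had peaks in all 4 CPC libraries and, by the rule, in neither uninduced EPC library. Lamb1's promoter region scored 119.3 and 133.2 in induced EPC, 175.1 and 108.6 in induced CPC, and 65.4 in uninduced CPC list 1, with no peak in list 2. Cnn1's scored 113.9 and 74.0 in induced EPC, 85.6 and 106.6 in induced CPC, and 52.8 in uninduced CPC list 1, with no peak in list 2. A score is the authors' value for a peak, minus 10 times the log10 of its p-value in MACS 1.4 format, and none of these 4 regions had a ChIP peak in an induced list.

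In induced EPC, where the regions were called as new, their peaks were weak by the standard of the list. The median score was 79.8 (quartiles 61.7 and 110.6) in list 1 and 84.9 (64.4 and 122.1) in list 2, with ranges from the floor of the caller, 50.0 and 50.1, to 470.9 and 673.8. In list 1, 31.2% of these peaks scored 100 or more, against 64.2% of all peaks in that list, and in list 2 37.4%, against 63.9%. The median peak thus sat at percentile 26.2 and 29.1 of the lists, and that of other gained regions at 28.7 and 33.5. A score of 100 or more in both induced EPC lists was reached by 141 CPC-open gained regions (19.0%) and by 672 other gained regions (28.1%). In 375 CPC-open gained regions (50.4%) both scores were under 100.

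The 10 regions that ranked highest by score in induced EPC come next. The leading one lay inside Ttr (chr18:20672827-20673903), the gene of transthyretin, a thyroid hormone and retinol carrier made by visceral endoderm and liver. Its scores were 377.7 and 673.8 in induced EPC, 982.5 and 637.1 in induced CPC, and 69.3 in uninduced CPC list 1, with no peak in uninduced CPC list 2 or in uninduced EPC. A region inside Rnf165, a ubiquitin ligase gene, had 470.9 and 431.8 in induced EPC, 235.6 and 143.6 in induced CPC and 80.0 in uninduced CPC list 1. Both were thus open in every induced library, of either cell type, and in a single uninduced library.

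Among the same 10, a region 24.7 kb from Dnmt3b (chr2:153712382-153713871), the gene of a DNA methyltransferase that sets new methylation in early embryos, had 307.9 and 354.9 in induced EPC. It had 612.9 and 433.6 in induced CPC and 108.4 in uninduced CPC list 1. A region inside Epha3, an ephrin receptor gene, had 292.9 and 346.4 in induced EPC, 305.4 and 391.2 in induced CPC and 151.4 in uninduced CPC list 1. These repeated the pattern at Ttr, with the uninduced CPC peak in list 1 alone. A region 10.8 kb from Add3, which encodes an adducin of the membrane skeleton, had 358.9 and 366.4 in induced EPC, 387.8 and 475.2 in induced CPC, and 284.7 and 203.6 in uninduced CPC. A region 38.1 kb from Csrp2, a LIM-domain gene of smooth muscle, had 277.5 and 401.3 in induced EPC, 767.9 and 529.0 in induced CPC, and 395.0 and 138.1 in uninduced CPC. These regions were open in all 4 CPC libraries. The other 4 of the 10 lay 45.5 kb from BC048507 or had no protein-coding gene within 50 kb, and all 10 had a peak in both induced CPC lists. Of the 10, 6 had a peak in at least 1 induced ChIP list and none in an uninduced one.

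**Figure D1:**
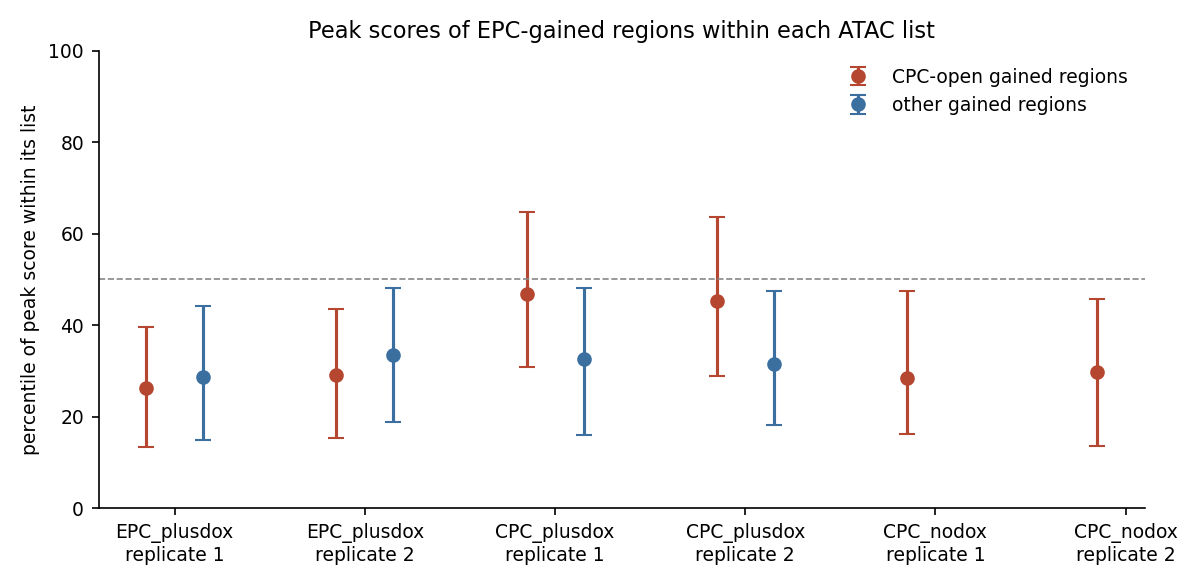
Median (point) and quartiles (bars) of the percentile of peak scores within each ATAC list, for CPC-open gained regions (red) and other gained regions (blue, absent from uninduced CPC by definition), over the regions with a peak in that list. The dashed line is the median of a list; the medians of the CPC-open gained regions lie at 26.2 to 29.7 in induced EPC and uninduced CPC and at 46.9 and 45.3 in induced CPC.

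The prior peaks in uninduced CPC were also weak, and more of them came from list 1, the longer list. There were 320 regions with a peak in both uninduced CPC lists, 299 with a peak in list 1 only and 125 with a peak in list 2 only. The median score was 85.2 over the 619 peaks in list 1 and 80.1 over the 445 peaks in list 2, at percentile 28.4 and 29.7 of the lists. In induced CPC, 585 regions (78.6%) had a peak in list 1 and 570 (76.6%) in list 2, with median scores of 130.6 and 121.0. These stood at percentile 46.9 and 45.3, so the regions ranked higher within the induced CPC lists than within either the induced EPC or the uninduced CPC lists, as the plot of score percentiles shows. Ranks in lists of different length and depth show no change in openness.

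In induced CPC, 505 of the 744 regions (67.9%, exact 95% interval 64.4 to 71.2) had a peak in both lists, 145 in 1 list and 94 (12.6%) in none. Over all regions with an uninduced CPC peak, 65.3% had a peak in both induced CPC lists, so the share as a whole lay close to the background. It differed with the number of uninduced CPC lists that had a peak. Of the 424 regions with a peak in 1 uninduced CPC list, 242 had both induced CPC peaks (57.1%, 95% interval 52.2 to 61.8), against 29.5% of all regions with a peak in 1 such list. That background varied with the EPC peaks: among regions with a peak in 1 uninduced CPC list, 66.3% of those with a peak in all 4 EPC lists had both induced CPC peaks, and 11.3% of those with no EPC peak. Of the 320 with a peak in both uninduced CPC lists, 263 had both induced CPC peaks (82.2%, 95% interval 77.6 to 86.2), against 84.8% of all such regions. Regions are not replicates, and an exact permutation test of 2 libraries against 2 cannot pass 0.05, so these shares stand as counts with intervals that cover counting error only. Of the other gained regions, 593 (24.8%) had a peak in both induced CPC lists, which makes them regions gained in both cell types.

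Read from the CPC side, the gain in EPC went with the peaks of induced CPC more than with those of uninduced CPC. Among regions with no uninduced EPC peak and a peak in 1 uninduced CPC list, 24.3% (242 of 995) were gained in EPC where both induced CPC lists had a peak. The share was 7.73% (101 of 1307) where 1 had a peak and 2.25% (81 of 3604) where none had. Among those with a peak in both uninduced CPC lists, the shares were 17.5% (263 of 1503), 6.19% (44 of 711) and 1.59% (13 of 816) in the same order. Regions with no uninduced CPC peak and both induced CPC peaks were gained in EPC in 30.4% of cases (593 of 1949).

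**Figure D2:**
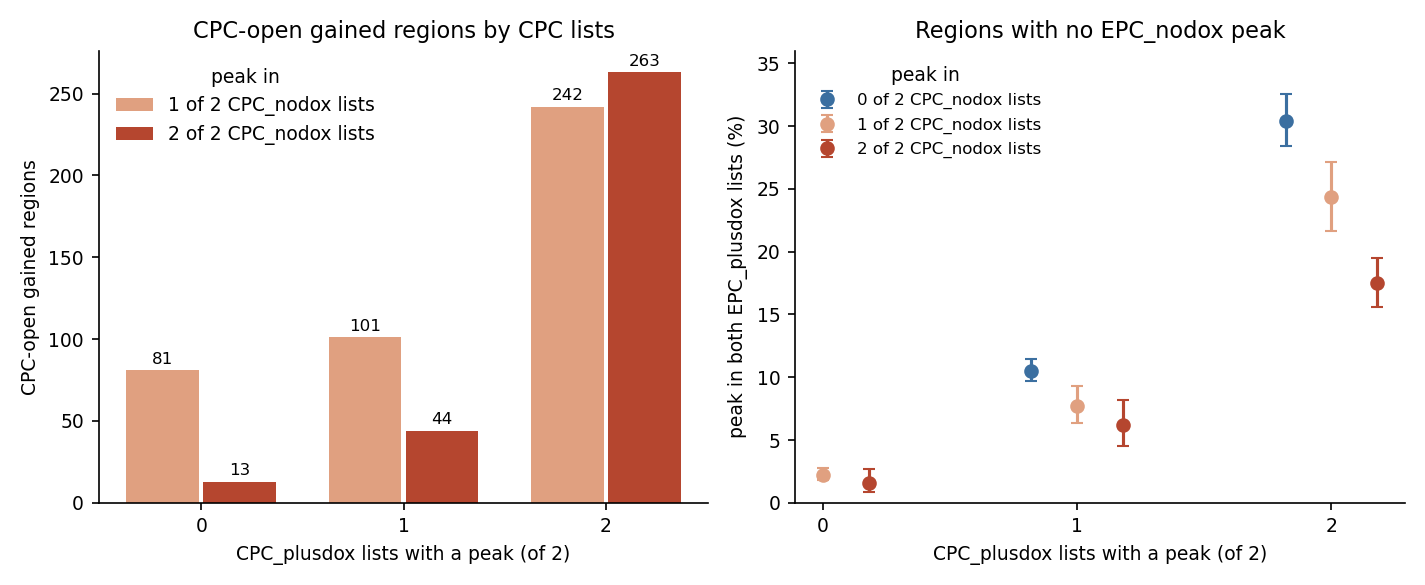
Left, the number of CPC-open gained regions by the number of induced CPC lists with a peak (x axis) and of uninduced CPC lists with a peak (colour). Right, the percent of regions with no uninduced EPC peak that had a peak in both induced EPC lists, with exact 95% intervals, in the same classes and with regions lacking an uninduced CPC peak in blue (regions with no CPC peak at all are left out, since each of them must have an EPC peak); the share is 17.5% to 30.4% with both induced CPC peaks and 1.59% to 2.25% with none.

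The regions most open in CPC were ranked by mean percentile over the 4 CPC lists, among those with a peak in all 4. The leading 10 shared no region with the leading 10 in induced EPC. Unrelated rankings of this many regions would seldom share one either, so this shows no difference between the sets. A region 20.3 kb from Ddx1, an RNA helicase gene, had scores of 1102 and 847.3 in induced CPC and 877.1 and 363.8 in uninduced CPC, but 70.5 and 62.9 in induced EPC. A region inside Dmd, the dystrophin gene, had 638.5 and 722.3 in induced CPC, 757.1 and 335.4 in uninduced CPC, and 57.9 and 104.2 in induced EPC. A region 12.7 kb from Blk, a SRC-family kinase gene, had 776.5 and 658.6 in induced CPC, 254.1 and 367.3 in uninduced CPC, and 61.1 and 51.2 in induced EPC. At the Ddx1, Dmd and Blk regions strong CPC peaks stood beside weak EPC peaks, the highest of these EPC peaks at percentile 37.9 of its list. Regions inside Pakap, Kifap3, Tbc1d1 and Gm16527 and near Mfap3l were also among the 10, with induced EPC scores of 51.1 to 207.4. The region inside Pakap, a gene of a kinase-anchoring protein, had the highest induced EPC scores of these, 193.3 and 207.4.

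A small group went the other way in CPC. There were 13 regions with a peak in both uninduced and neither induced CPC list. They were 1.75% of the 744, against 2.35% of all regions, and 4.06% of the 320 with both uninduced CPC peaks, against 6.24% of all such regions, so the call was no more frequent than in the background. A region inside Vangl1, a planar cell polarity gene, had 152.0 and 121.2 in induced EPC, no peak in induced CPC, and 194.1 and 133.9 in uninduced CPC. A second Dnmt3b region, inside the gene, had 61.1 and 87.6 in induced EPC and 82.3 and 71.8 in uninduced CPC. The region inside Plau, the gene of the protease urokinase, had 64.8 and 117.5 in induced EPC and 126.8 and 59.0 in uninduced CPC. Dnmt3b therefore carried 2 regions with unlike CPC patterns, with the one outside the gene present in both induced CPC lists. Regions inside Zbtb20, a zinc finger repressor gene, and 37.2 kb from Asb17 followed, with induced EPC scores of 52.7 to 63.4.

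The edge of the rule was thin on the EPC side. The regions with the lowest scores lay 7.76 kb from the taste receptor gene Tas2r143 (50.0 and 58.2 in induced EPC), inside Wt1, a zinc finger gene of mesothelium and kidney (50.0 and 60.8), and inside Mvb12b (50.1 and 106.9). Just outside, 1889 regions failed because of a peak in 1 uninduced EPC list, in list 1 for 1449 of them, with a median score of 86.3 there. Of these, 1182 (62.6%) had an uninduced score under 100. The strongest of them lay at Stxbp2 (203.7 and 377.1 in induced EPC, 456.0 in the uninduced list), at Fbxl12 and Ubl5 (352.1 and 284.7, with 379.1) and at Srp19 (296.6 and 196.7, with 376.9). A further 1329 regions failed because 1 induced EPC peak was missing, with a median score of 65.6 in the other list. Without uninduced EPC list 1 the same rule kept 2194 regions, without list 2 1186, without induced EPC list 1 1539 and without list 2 1284. Without uninduced CPC list 1 it kept 447.

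Sox7 binding was read from the anti-Myc ChIP lists, which the choice of regions did not use. In induced lists 1 to 4, peaks overlapped 15, 12, 43 and 9 CPC-open gained regions (2.02%, 1.61%, 5.78% and 1.21%). In uninduced lists 1 to 4 they overlapped 6, 8, 6 and 5 (0.806%, 1.08%, 0.806% and 0.672%). The induced lists averaged 2.65% ± 2.11 (SD, n = 4) and the uninduced lists 0.83% ± 0.039 (SD, n = 3), a difference of 1.83 percentage points. The 2 groups of lists did not overlap (two-sided exact permutation p = 0.0571, Benjamini-Hochberg adjusted 0.0714 over 5 measures), and 0.0571 is the smallest p that 4 against 3 lists allow. Of the 32 regions with a peak in a single induced list, 28 had it in list 3, the longest, and without that list the difference was 0.784 percentage points. With every ChIP list limited to its 772 highest peaks the difference was 0.168 points (exact permutation p = 0.571, against 0.0286 to 0.914 over all alternatives). Without induced EPC list 1 or 2 in the choice of regions it was 1.11 and 1.12 points. At equal length the induced and uninduced lists overlapped. Over all ATAC regions, the full induced lists averaged 2.41% and the uninduced lists 1.26%, also without overlap (exact permutation p = 0.0571). The higher share in induced lists was thus not particular to the CPC-open gained regions.

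At other gained regions, peaks overlapped 103, 63, 345 and 37 regions in induced lists 1 to 4 (4.30%, 2.63%, 14.4% and 1.54%). In uninduced lists they overlapped 3, 4, 3 and 2 (0.125%, 0.167%, 0.125% and 0.0835%). The difference between CPC-open and other gained regions, taken within each list, was −3.07 ± 3.79 percentage points in induced lists (SD, n = 4) and 0.704 ± 0.0388 in uninduced lists (SD, n = 3). The induced minus uninduced contrast was −3.77 points, with every induced list below every uninduced list (two-sided exact permutation p = 0.0571, the smallest possible, adjusted 0.0714). CPC-open gained regions thus held anti-Myc ChIP peaks less often than other gained regions in each of the 4 induced lists, and more often in each of the 4 uninduced lists, in a comparison that cannot pass 0.05. The contrast was −1.92 points without induced list 3, −1.87 and −2.35 without induced EPC list 1 or 2, and −1.26 at equal list length. It was −3.69 with regions on an input peak left out. Against all ATAC regions, the CPC-open gained regions held peaks less often in induced lists 1, 2 and 4 (differences of −0.130, −0.285 and −0.392 points) and more often in induced list 3 (1.80 points). The mean difference was 0.249 ± 1.04 points in induced lists (SD, n = 4) and −0.431 ± 0.0912 points in uninduced lists (SD, n = 3; exact permutation p = 0.114, adjusted 0.114), but it was −0.269 points in induced lists without list 3, which therefore sets its direction.

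**Figure D3:**
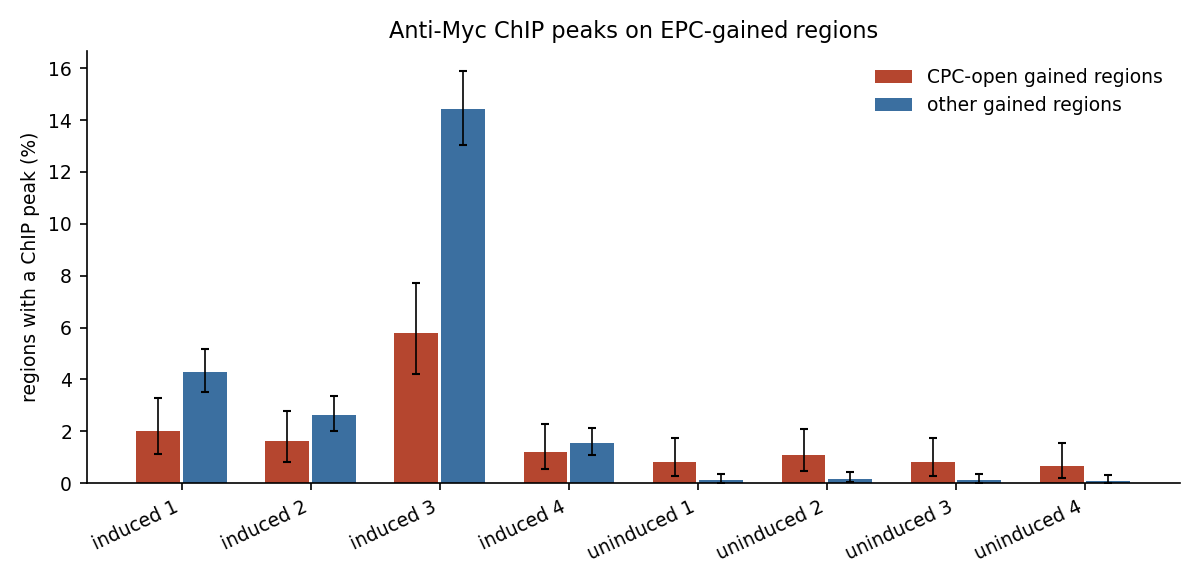
Percent of CPC-open gained regions (red, of 744) and of other gained regions (blue, of 2395) that overlap a peak in each anti-Myc ChIP list, with exact 95% intervals, induced lists left of uninduced lists. In every induced list the blue bar is higher, from 1.54% to 14.4%, and in every uninduced list the red bar is higher, from 0.672% to 1.08%.

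Counted by region, 41 CPC-open gained regions had a peak in at least 1 induced and no uninduced ChIP list (5.51%, exact 95% interval 3.98 to 7.40), against 373 other gained regions (15.6%, 14.1 to 17.1) and 3.27% of all ATAC regions. No ChIP peak of any kind was found at 694 of them (93.3%) and at 2015 other gained regions (84.1%). The share went with the induced EPC peak score: it was 16.3% (23 of 141) where both induced EPC scores were 100 or more, against 28.4% of such other gained regions (191 of 672). Below that it was 2.99% (18 of 603), against 10.6% (182 of 1723), so the step with score was seen in both sets. By induced CPC peaks it was 7.13% with both (36 of 505, 5.04 to 9.73), 1.38% with 1 (2 of 145, 0.167 to 4.89) and 3.19% with none (3 of 94, 0.663 to 9.04), in no steady order. Other gained regions with the same number of induced CPC peaks had 27.8% (165 of 593), 16.5% (84 of 510) and 9.60% (124 of 1292). In the test over lists, chosen after the data were seen, the contrast was −4.70 points among regions with both induced EPC scores at 100 or more and −3.15 points with CPC-open regions limited to those with both induced CPC peaks (exact permutation p = 0.0571 each, against 0.0286 to 0.133 over all alternatives).

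ChIP peaks were also merged, and a merged ChIP region found in 3 or all 4 induced lists and in no uninduced list was taken as an induced ChIP site. Of 235 such sites, 5 CPC-open gained regions carried one (0.672%, 0.219 to 1.56), against 43 other gained regions (1.80%) and 0.414% of all ATAC regions. The count was 1 without uninduced CPC list 1 and 14 without uninduced EPC list 1. Pbx3 (chr2:34249273-34250188, inside the gene), a homeodomain partner of HOX proteins, was the only one with a peak in all 4 induced lists, scoring 46.5, 42.4, 203.6 and 75.9. Its ATAC scores were 123.6 and 79.3 in induced EPC, 62.5 and no peak in induced CPC, and 66.6 and 50.2 in uninduced CPC. Its ChIP score was high in list 3, while its ATAC scores ranked below the median of every list.

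The region 1.83 kb from Casq2 (chr3:102083484-102084581), the gene of cardiac calsequestrin, which stores calcium in the sarcoplasmic reticulum, had ChIP scores of 78.1, 113.1 and 100.2 in induced lists 1 to 3. Its ATAC scores were 164.2 and 118.0 in induced EPC, 127.9 and 138.8 in induced CPC, and 60.4 in uninduced CPC list 1. The region inside Chst8 (chr7:34721382-34722555), a sulfotransferase gene, had ChIP scores of 40.9, 44.1 and 81.5 in the same lists. Its ATAC scores were 201.5 and 178.4 in induced EPC, 101.0 and 226.8 in induced CPC, and 65.2 in uninduced CPC list 1. The Dnmt3b region outside the gene had ChIP scores of 48.2, 62.1 and 48.4 in induced lists 2 to 4, and the Ttr region 49.0, 99.3 and 47.0. All of these 4 regions had peaks in the 4 induced ATAC libraries and a single uninduced CPC peak, in list 1, with scores of 60.4 to 108.4.

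A peak in 2 or more induced lists and no uninduced list was found at 11 regions (1.48%), against 110 other gained regions (4.59%). Of the 11, the 5 above had 3 or 4 such peaks, and 6 further regions had exactly 2. The one 12.3 kb from Spry1 (chr3:37656860-37657627), an inhibitor of receptor tyrosine kinase signalling, had ChIP scores of 40.9 and 81.7 in lists 1 and 3. Another lay inside Pakap, at a position other than the one above, and another 33.7 kb from Zfp148. The other 3 had no protein-coding gene within 50 kb. By contrast, 9 CPC-open gained regions (1.21%) had a peak in an uninduced ChIP list, against 7 other gained regions (0.292%). Of these 9, 6 lay on an input peak, as did 2 other gained regions. They lay at Itln1, Zfp978, Zfp640 and 5 genes known by number or clone names, or had no gene nearby. In each uninduced list the share of CPC-open gained regions with a peak was below that of all ATAC regions (0.672% to 1.08% against 1.12% to 1.33%).

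In the authors' deposited lists, 11 of the 744 regions (1.48%) overlapped the Sox7 list, against 100 other gained regions (4.18%) and 0.942% of all ATAC regions. The authors' deposited list of Sox7 and Gata4 overlap held 4 of the 744 regions (0.538%), against 4 other gained regions (0.167%) and 0.217% of all. One was the Dnmt3b region outside the gene. How these lists were made is not stated in the sources used here. The authors' deposited list of EPC regions seen only with doxycycline overlapped 740 of the 744 (99.5%). It overlapped 2394 of the 2395 other gained regions and 6.34% of all ATAC regions. The rule here also required EPC peaks with doxycycline only, so this overlap is no independent check.

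In position, the CPC-open gained regions stood between the other gained regions and open chromatin at large under the main settings. A start site lay inside 88 of the 722 regions on chromosomes with annotated start sites (12.2%, exact 95% interval 9.89 to 14.8), against 2.55% of other gained regions (59 of 2317) and 20.2% of all ATAC regions. The share was 21.8% without uninduced EPC list 1 and 22.7% with a score minimum of 100 in every ATAC list. Both lie above 20.2%, but the shares of the other sets were not computed again under these settings. Within 10 kb of a start site lay 29.6% of them, against 19.1% and 36.3%. The median distance was 32.6 kb, against 55.2 kb and 25.6 kb. Inside a gene lay 411 regions (55.2%), within 50 kb of one 206 (27.7%), and beyond that 127 (17.1%), against 23.8% of other gained regions beyond 50 kb. The reverse call, a peak in both uninduced and neither induced EPC list, was made at 935 regions (1.82% of all), of which 355 had an uninduced CPC peak and 7.92% of these held a start site. The merged regions were 1034 bp wide at the median, against 892 bp for other gained regions, although the induced EPC peaks themselves were alike, 740 and 799 bp against 726 and 780 bp.

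**Figure D4:**
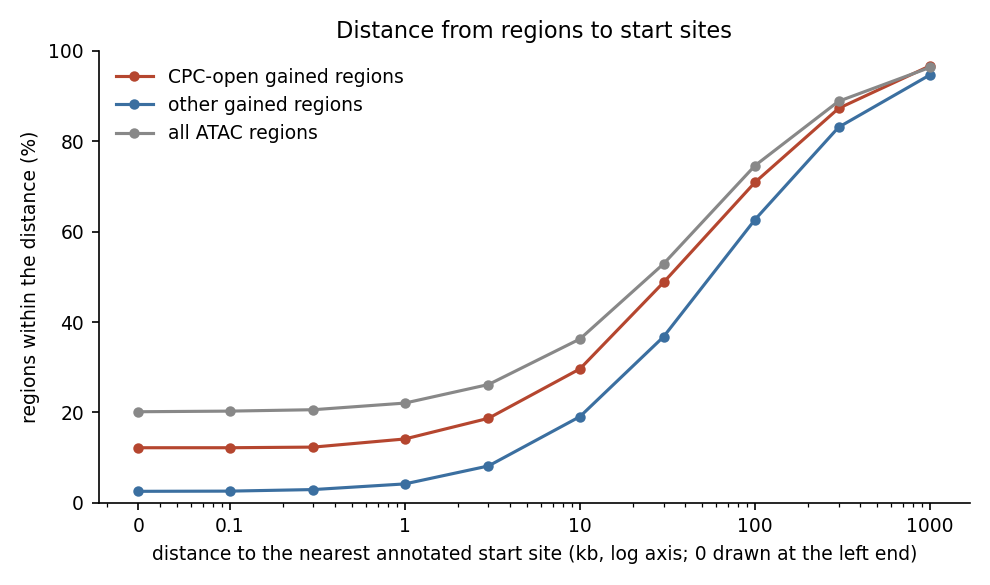
Cumulative percent of regions (y axis) within a given distance of the nearest annotated start site (x axis, kb, log scale with 0 at the left end), for CPC-open gained regions (red), other gained regions (blue) and all ATAC regions (grey). At distance 0 the curves stand at 12.2%, 2.55% and 20.2%, and they approach each other beyond 100 kb.

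No induced Sox7 peak was found at the regions with a start site. None of the 88 had a peak in an induced list without one in an uninduced list, which allows a share of up to 4.11% by the exact 95% interval, while 38 of the 634 without a start site did (5.99%, 4.28 to 8.13). Other gained regions also had few at start sites, 1 of 59 (1.69%, 0.0429 to 9.09), against 355 of 2258 without a start site (15.7%). Over all ATAC regions the shares were 1.69% with a start site (169 of 10022) and 3.63% without one (1442 of 39716), so fewer peaks at start sites were not particular to the CPC-open gained regions. Without regions that hold a start site, the contrast between CPC-open and other gained regions over the ChIP lists was −3.70 points. Both induced CPC lists had a peak at 49 of the 88 (55.7%) and at 69.2% of those without a start site, and 27 of the 88 were in both uninduced CPC lists.

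In 83 regions, 99 promoters of 87 genes lay wholly inside, and these were compared with other sets over the 250 bases before the start site. Their median GC content was 61.6%, against 58.8% for the 54 promoters in other gained regions and 61.2% for the 11912 promoters inside any ATAC region. The ratio of observed to expected CpG was 0.576, against 0.509 and 0.749, and it was under 0.6 in 51.5%, against 57.4% and 28.5%. Over all 21263 promoters the median GC content was 55.6% and the ratio 0.530, with 55.3% under 0.6. The promoters that opened in EPC thus held fewer CpG than promoters in open chromatin at large, whether or not they had an uninduced CPC peak. Their CpG ratios lay close to those of all promoters, and their GC content was higher than that of all promoters. Tfpi had an observed to expected CpG ratio of 0.174, Cnn1 0.141, Frmd4a 0.425 and Lamb1 0.627. The highest ratio was 1.27, at Fam169a. Among those with ratios near 1, Hes5, a repressor gene activated by Notch, had 1.00, and Igfbp3, which encodes an insulin-like growth factor binding protein, 0.958. Fam169a, Hes5 and Igfbp3, like the genes in the next sentences, were picked after their values were seen.

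The word AACAAT, searched on both strands, was in 8 of the 99 promoters (8.08%), against 3.70% in other gained regions, 4.48% inside any ATAC region and 8.22% of all 21263 promoters. The overlapping word ACAATG was in 4.04%, against 18.5%, 5.37% and 9.35%. The TATA word TATAAA was in 5.05%, against 11.1%, 5.14% and 11.6%, and the ETS word CCGGAA in 10.1%, against 11.1%, 23.0% and 15.0%. Besides Tfpi and Cnn1, AACAAT was in the promoters of Snx10, Nkx2-9, Rusc1, Tmem176a, Tmem176b and Kdm2b, where Tmem176a and Tmem176b share 1 region and 1 stretch of sequence. A word in a promoter is a description of its letters and not a binding site.

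Other genes whose promoters lay in these regions include signalling genes. The promoter region of Fgfr3, a fibroblast growth factor receptor gene, scored 177.4 and 66.6 in induced EPC, 61.9 and 141.5 in induced CPC, and 210.0 in uninduced CPC list 1. That of Hes5 scored 87.6 and 68.0 in induced EPC, 80.6 and 152.2 in induced CPC, and 75.1 in uninduced CPC list 1. The promoter region of Adm, the gene of the vascular peptide adrenomedullin, scored 80.6 and 89.0 in induced EPC and 57.4 in uninduced CPC list 1, with no peak in induced CPC. That of Ror2, a receptor for Wnt ligands, scored 67.8 and 89.8 in induced EPC and 75.9 in uninduced CPC list 1, likewise with none in induced CPC. All 4 had a peak in only 1 of the 2 uninduced CPC lists.

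Genes were assigned by overlap with the gene body, or as the nearest within 50 kb, which gave 600 genes with a CPC-open gained region among 16803 with any ATAC region (3.57%), against 1583 (9.42%) with another gained region. Bbx, an HMG-box gene, had 3 such regions and 31 genes had 2. Of the gene lists, 12 had at least 1 gene with such a region, 27 genes in all, 16 of them with the region inside the gene or within 10 kb. The lists were written with earlier results of these data known, and the counts are small.

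Smooth muscle and pericyte genes had such regions at 3 of 8 genes, and other gained regions at 1 of 8. Of the ATAC regions at these genes 14.3% were CPC-open gained regions, against 1.39% over all protein-coding genes, a share that rests on 3 regions. The region inside Myh11, smooth muscle myosin heavy chain, had scores of 99.1 and 89.2 in induced EPC, 409.3 and 111.4 in induced CPC, and 60.1 and 72.8 in uninduced CPC. Cnn1 is given above, and the region 13.4 kb from Rgs5, a pericyte regulator of G protein signalling, had 59.4 and 105.5 in induced EPC, 111.8 and 210.2 in induced CPC, and 59.9 in uninduced CPC list 1. Over all 21 regions of this list, 11 and 12 had a peak in induced EPC, 5 and 7 in uninduced EPC, 12 and 12 in induced CPC, and 12 and 9 in uninduced CPC, and the 3 regions above are among them. The part of a change in cell types within the sort was not tested.

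Pluripotency genes had such regions at 4 of 15 genes, and other gained regions at 1. By region the share was 9.62%, against 1.39% over all protein-coding genes, and it rests on 5 regions, 2 of them at Dnmt3b. Besides the 2 at Dnmt3b, a region 26.3 kb from Klf5, a Krüppel-like factor gene, had 78.0 and 148.6 in induced EPC, 446.2 and 103.4 in induced CPC, and 87.7 and 63.1 in uninduced CPC. A region inside Lin28a, which encodes an inhibitor of let-7 maturation, had 57.4 and 109.8 in induced EPC, 117.3 and 64.5 in induced CPC, and 92.2 in uninduced CPC list 1. A region 0.757 kb from Otx2, a homeobox gene of early epiblast and forebrain, had 66.3 and 69.9 in induced EPC, 89.1 in induced CPC list 1 and 68.1 in uninduced CPC list 2. Apart from the Dnmt3b region outside the gene, all ranked below the median of both induced EPC lists. Over the 52 regions of the list, 31 and 35 had a peak in induced EPC, 30 and 24 in uninduced EPC, 25 and 25 in induced CPC, and 26 and 20 in uninduced CPC. The regions above are among them, so part of the difference in EPC is fixed by the rule.

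Endoderm genes had such regions at 4 of 21 genes, and other gained regions at 7. By region the share was 3.92%, against 1.39% over all protein-coding genes, and it rests on 4 regions. Besides Ttr and Lamb1, a region 0.555 kb from Foxa3, a forkhead factor gene of endoderm, had 100.4 and 55.2 in induced EPC, 58.2 in induced CPC list 2 and 79.7 in uninduced CPC list 1. A region inside Col4a1, a basement membrane collagen, had 77.1 and 52.9 in induced EPC, 53.9 in induced CPC list 1 and 92.1 in uninduced CPC list 2. Of the 4 genes, Ttr alone had its region on an induced ChIP site. Over the 101 regions of the list, 54 and 63 had a peak in induced EPC, 37 and 34 in uninduced EPC, 58 and 50 in induced CPC, and 51 and 34 in uninduced CPC. Gained regions are among them, so part of the difference in EPC is fixed by the rule. The part of endoderm cells in the sorts was not tested.

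Endothelial genes, the lineage of the EPC sort, had such regions at 2 of 30 genes, and other gained regions at 8. Of the ATAC regions at endothelial genes 1.24% were CPC-open gained regions, against 1.39% over all protein-coding genes, so the share lay near the background. The region 20.2 kb from Aplnr, the apelin receptor gene, had 122.7 and 143.9 in induced EPC, 219.5 and 192.0 in induced CPC, and 201.2 in uninduced CPC list 1. The region inside Eng, the TGF-β co-receptor endoglin, had 60.5 and 129.0 in induced EPC, 79.5 in induced CPC list 2 and 90.2 in uninduced CPC list 1. Cardiac genes had such regions at 2 of 22, Isl1 and Myocd, and by region the share was 1.60%, again near the background. The region inside Isl1, a LIM-homeodomain gene of second heart field progenitors, had 89.3 and 66.7 in induced EPC, 164.4 and 108.5 in induced CPC, and 137.3 in uninduced CPC list 2. The region 25.4 kb from Myocd, a cofactor of serum response factor in heart and smooth muscle, had 141.1 and 103.0 in induced EPC, 177.7 and 119.9 in induced CPC, and 100.0 and 86.9 in uninduced CPC. None of these 4 regions had a ChIP peak.

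The BMP and TGF-β, Wnt, VEGF and vessel guidance, SOX, Hippo and Notch lists each had few genes with such a region. These were 5.00% to 10.5% of their genes with an ATAC region, against 3.57% of all genes. Of the ATAC regions at these genes, 1.00% to 2.38% were CPC-open gained regions, against 1.39% over all protein-coding genes. By region the shares thus lay around the background. The BMP and TGF-β list had 3 of 30 genes, all near and none inside: the receptor-like inhibitor Bambi, the signal transducer Smad2 and the inhibitory Smad6. The region 26.8 kb from Bambi had 103.4 and 88.5 in induced EPC, 127.6 and 141.6 in induced CPC, and 74.0 and 122.5 in uninduced CPC. The Wnt list had 2 of 26 genes. The region 1.00 kb from Wnt11, a ligand of heart development, had 186.3 and 236.1 in induced EPC, 194.9 and 98.2 in induced CPC, and 55.9 in uninduced CPC list 1. The region inside Tcf7l1, a repressor of Wnt target genes, had 152.5 and 135.0 in induced EPC, 125.8 and 164.0 in induced CPC, and 176.8 and 135.1 in uninduced CPC. Wnt11 thus had the stronger EPC peaks and Tcf7l1 the stronger prior peaks in CPC.

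The VEGF and vessel guidance list had 2 of 22 genes, the guidance ligand Sema3a and Spry1. The region inside Sema3a had 85.2 and 82.6 in induced EPC, 77.2 in induced CPC list 1, and 96.8 and 140.5 in uninduced CPC. The Spry1 region had 167.6 and 134.6 in induced EPC, 109.0 and 137.9 in induced CPC, and 57.2 in uninduced CPC list 2. The SOX list had 2 of 19 genes, with a region inside Sox6 (72.6 and 78.8 in induced EPC) and one 21.5 kb from Sox11 (64.6 and 63.9). The Hippo list had 1 of 19, inside the effector Tead1, with 66.7 and 52.2 in induced EPC, 201.3 and 226.4 in induced CPC, and 387.6 and 171.6 in uninduced CPC. The Notch list had 1 of 20, 13.8 kb from Rbpj, its DNA-binding effector, with 63.2 and 97.7 in induced EPC. Tead1 had a ChIP peak in induced list 3 alone, and Sox6, Sox11, Sema3a and Rbpj had none.

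Blood (20 genes), early mesoderm (17) and neural genes (15) had no CPC-open gained region among their 67, 56 and 59 ATAC regions. Over all protein-coding genes the share of regions was 1.39%, at which lists of this size would often hold none. Other gained regions were found at 0, 1 and 2 genes of these lists. The housekeeping list had 1 of 17, a region 21.5 kb from Eef1a1, a translation elongation factor gene, with 52.0 and 107.1 in induced EPC.

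**Figure D5:**
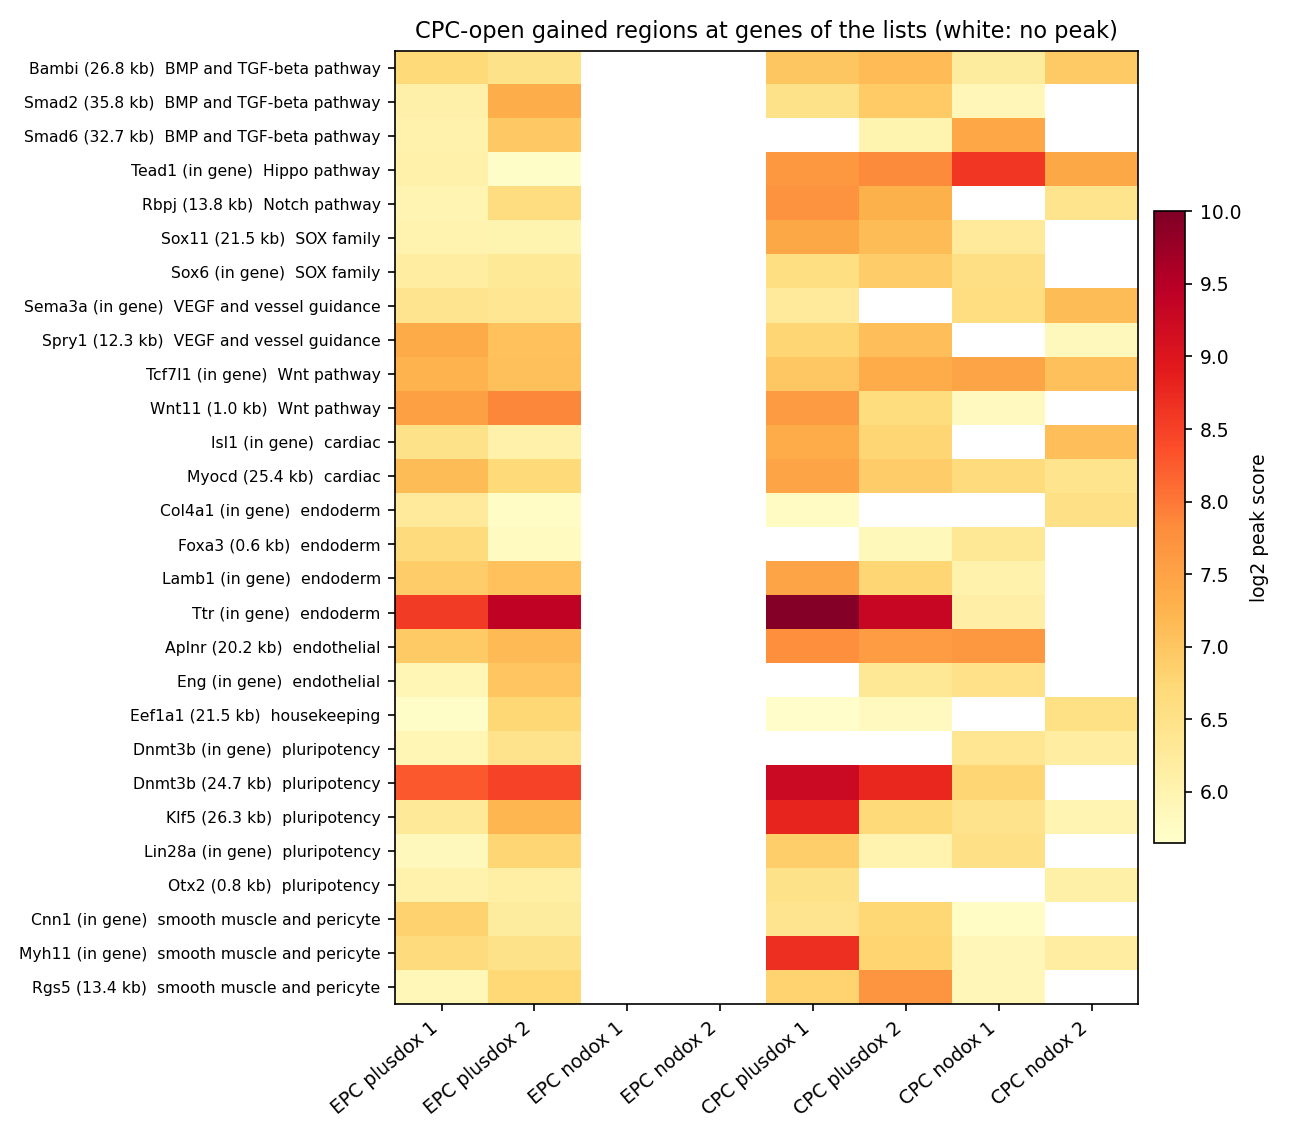
Peak scores (colour, log2 of the authors' score) of the 28 CPC-open gained regions at genes of the lists, one row each with the distance to the gene and the list's name, in the 8 ATAC libraries; white marks no peak, which the rule fixes for uninduced EPC. The Ttr region and the Dnmt3b region outside the gene are darkest in all 4 induced libraries, with 1 weak uninduced CPC peak each, while the Tead1 region is darkest in uninduced CPC.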

How the data were processed

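Peak lists of 8 ATAC-seq libraries, 8 anti-Myc ChIP-seq libraries and 1 input library were used, with groups taken from the sample labels. Each peak's score was deposited by the authors' peak caller. Per the submitters' processing notes, the tools named, without roles, include Bowtie2, SAMtools, bedtools, MACS 1.4 and Trimmomatic, with builds mm10 and GRCm38, and the control used for the peak calls is not given in the sources used here. Sort labels follow the sample characteristics, although the growth protocol speaks of PDGFRα+FLK1− cells. The lists hold no counts, so depth is unknown, and scores were compared only within a list.

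Peaks were merged at 1 bp of overlap (Python 3.11.15, pandas 2.3.3, numpy 2.4.6, scipy 1.17.1), and a ChIP peak counted as present at 1 bp of overlap. Protein-coding genes (21887) and promoters (17492 genes, 21263 start sites, none on chromosome 18) came from RefSeq tables of GRCm38.p6, which all 329 list genes matched. Shares have exact 95% binomial intervals. ChIP lists were compared by two-sided exact permutation tests with Benjamini-Hochberg adjustment over 5 measures, and the code was tested on simulated lists. The labels do not say whether replicates were separate cultures, and the spread that the p-values rest on may be technical.

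Regions were named by these rules: the 10 highest in induced EPC, all on an induced ChIP site, all at a list gene, the 5 highest that were lost in CPC, genes with at least 3 regions, the 10 highest in all 4 CPC lists, and 3 on each side of the rule's edge. The regions and the lists were chosen with earlier results of these data known. Alternatives covered scores, list length, overlap, gene distance, the pair of near-identical lists and single libraries. The result of 1 gene list is not reported here.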

Additional observations from a re-analysis of the deposited data

Results flagged for a closer look

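There were 13 regions that opened on induction in EPC (peaks in the 2 induced EPC lists and in no uninduced EPC list) and closed in CPC (no peak in induced CPC lists and peaks in the 2 uninduced ones), among them those inside Vangl1, Dnmt3b, Plau and Zbtb20. They were 4.06% of the 320 CPC-open gained regions with both uninduced CPC peaks, against 6.24% of all regions with both. The rule that picked them fixes the opposite direction in every library, and the difference between the cell types was not tested.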

How the results depend on the processing

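The number of CPC-open gained regions was 379 with a score minimum of 100 in all ATAC lists, 428 with lists of equal length (23068 peaks), 320 with a peak required in both uninduced CPC lists, and 447 to 2194 when single libraries were left out. With both uninduced CPC lists required, 82.2% had both induced CPC peaks, 8.68% held a start site, 8 list genes had such a region and 1 region was on an induced ChIP site. Start sites were in 22.7% at a score of 100. Regions on an induced ChIP site numbered 11 with 2 induced lists required and 10 with uninduced peaks allowed, and list genes 16 within 10 kb. With single libraries left out, these ranged over 54.2% to 74.5% (both induced CPC peaks), 9.01% to 21.8% (start sites), 1 to 14 (ChIP sites) and 14 to 70 (list genes). For ChIP, the difference was 0.784 to 2.31 points without single libraries (0.773 without induced list 3 and with the near-identical uninduced lists counted separately). The contrast was −4.68 to −1.87 with other gained regions and 0.162 to 0.894 with all ATAC regions, the last chosen after seeing the data. With 4 against 4 lists they were 1.81 and −3.78 (exact permutation p = 0.0286, over 0.0286 to 0.914 and 0.0286 to 0.133 across alternatives). The replicate block gave 1.81 and −3.78 (exact permutation p = 0.125 each, the smallest for 4 pairs). Same-numbered ChIP lists had correlations of −0.0875 to 0.0711. Low correlations of such short peak lists cannot show whether the numbers pair the libraries, so the pairing is unknown. No alternative turned these directions. The causes were not tested. Depth is unknown and could set any missing peak.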
